A study of Chlamydomonas reinhardtii with 90 samples.

Results

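The heat shock factor genes HSF1 (Cre09.g387150) and HSF2 (Cre07.g354500) of the green alga Chlamydomonas reinhardtii were taken by their identifiers from a table of read counts for 17741 genes. These 2 genes both passed the filter on low counts and were among the 15541 genes tested. Polyadenylated RNA was sequenced in 90 libraries from the wild-type strain CC1690, kept at a steady density in acetate-containing TAP medium in photobioreactors under constant light. Cultures adapted to 25°C were moved to 40°C or 35°C in separate reactors, held there for 24 h and returned to 25°C for 48 h of recovery. Each treatment was sampled at 15 time points with 3 libraries, lettered A, B and C: before heat (pre-heat), on reaching the high temperature (heat 0 h), at 0.5, 1, 2, 4, 8, 16 and 24 h of heat, on reaching 25°C again (recovery 0 h), and at 2, 4, 8, 24 and 48 h of recovery. The 40°C and 35°C treatments have their own pre-heat libraries, and all groups share the strain, the medium and the light. The labels call the libraries of a group biological replicates but do not tie a letter to the same culture over time. The SEs and p-values of changes rest on 1 estimate of the spread per gene, shared by all 90 libraries. They measure the spread between libraries within groups, not the scatter of the 3 libraries of a single sampling.

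Heat shock factors are transcription factors that bind short repeated motifs, the heat shock elements, in the promoters of heat shock protein (HSP) genes and switch those genes on when unfolded proteins accumulate. Land plants carry large families of these factors, whereas Chlamydomonas relies on this small set. Alga lines with little HSF1 tolerate heat poorly and make few heat shock proteins. Far less is known of HSF2. Their targets include small HSPs, which hold unfolded proteins, HSP70 and HSP90 chaperones, which refold them, and ClpB (HSP100) proteins, which pull aggregates apart.

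Libraries held 10872030 to 35917831 counted reads (median 22088536). Levels are given in TPM (transcripts per 1000000 transcripts), which divides by gene length and so allows levels of both genes to be compared. Changes are log2 fold changes ± SE from edgeR's quasi-likelihood test with Benjamini-Hochberg adjustment over all 15541 genes. A gene is said to have risen or fallen where the adjusted p was under 0.05, the log2 fold change exceeded 1 in size and mean TPM differed by at least 1. A fit without a letter left out its libraries at all heat and recovery samplings, or in both pre-heat groups. Scaling and spread were then estimated anew. The TPM scale itself moved between samplings, and the 10 most abundant genes held between 27.4% and 59.2% of all TPM. The median gene shifted by −0.54 to 1.17 on the log2 TPM scale relative to pre-heat and by more than 0.1 at 18 of 28 time points, against −0.03 to 0.07 in the edgeR fit, which rescales libraries by the trimmed mean of M-values (TMM). The largest upward shifts were at 2 and 4 h of recovery from 40°C, 1.10 and 1.17, so TMM-normalised counts per 1000000 reads (normalised CPM) are given beside TPM there. A bulk level is an average over the culture, and a change in RNA per cell cannot be told apart from a change in the mix of cell states.

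Before heat both genes were expressed near the level of the median gene, in the cultures assigned to 40°C and 35°C. HSF1 had 2.42, 2.25 and 2.19 TPM in the libraries A, B and C of 40°C pre-heat, against 2.52, 2.18 and 2.10 TPM in those of 35°C pre-heat. HSF2 had 3.59, 3.64 and 3.65 TPM in 40°C pre-heat, against 4.13, 3.98 and 3.87 TPM in 35°C pre-heat. The HSF1 libraries of both sets overlapped, and the HSF2 libraries of 40°C pre-heat lay slightly below those of 35°C pre-heat. The log2 difference was 0.05 ± 0.21 for HSF1 and −0.10 ± 0.29 for HSF2 (edgeR's quasi-likelihood test, adjusted p = 1 for each), where 0% of all genes were called higher and 0.0257% lower in 40°C pre-heat. Over the 6 pre-heat libraries HSF1 averaged 2.28 TPM and HSF2 3.81 TPM, against 2.65 TPM for the median gene tested, which placed them above 46.6% and 57.9% of genes.

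Across all libraries HSF1 ranged from 0.940 TPM, in library C at recovery 0 h after 35°C, to 20.5 TPM, in library C at heat 0 h of 40°C, a 21.8-fold span. HSF2 spanned 1375-fold, from 0.0347 TPM in library C at recovery 0 h after 40°C to 47.8 TPM in library A at 0.5 h of 40°C. These are single libraries, the lowest resting on 7 reads and the highest having the lowest TMM factor, 0.509. The group means at these samplings were 0.0771 and 32.3 TPM. The wide span of HSF2 came from both ends, a higher peak in heat and a far deeper trough on cooling.

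**Figure D1:**
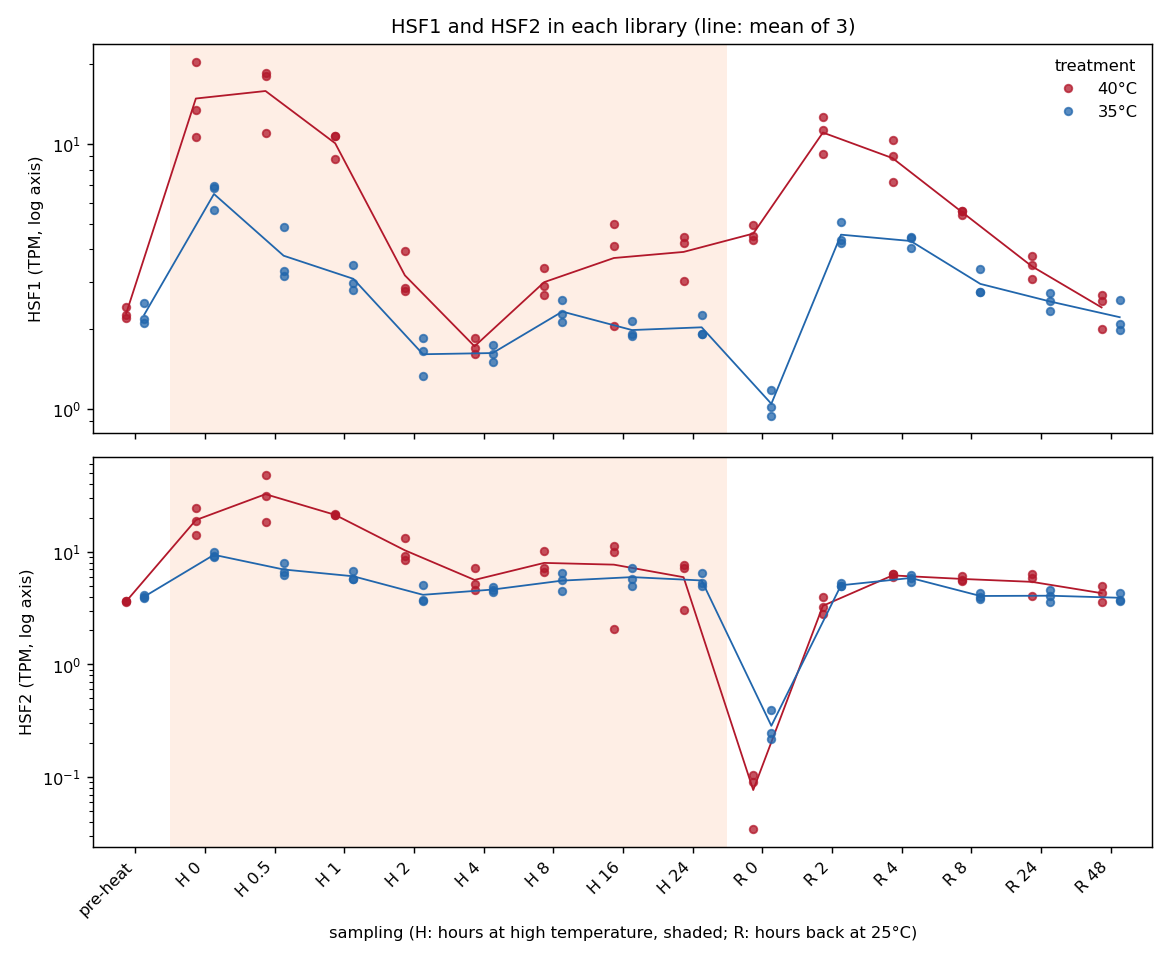
TPM of HSF1 and HSF2 (log scale) at the 15 time points of the 40°C and 35°C treatments; points are single libraries and lines join the means of 3. Both genes peak at the start of heat, and HSF2 drops to between 0.0347 and 0.392 TPM at recovery 0 h while HSF1 stays between 0.940 and 4.93 TPM.

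The 40°C treatment raised HSF1 by the time the culture reached temperature. HSF1 had 10.6, 13.5 and 20.5 TPM at heat 0 h of 40°C, against 2.42, 2.25 and 2.19 TPM in pre-heat. All 3 heated libraries lay above all 3 pre-heat libraries, as did those of 14.1% of all genes, with library C the highest. The log2 fold change was 3.17 ± 0.23 (edgeR's quasi-likelihood test, adjusted p = 1.22e-18), at a time point where 7% of all genes rose. At 0.5 h the libraries held 18.0, 18.5 and 11.0 TPM, a log2 fold change over pre-heat of 3.39 ± 0.23 (adjusted p = 4.21e-21), where 15.2% of genes rose. The order of the letters differed between these samplings: C was the highest library at heat 0 h and the lowest at 0.5 h. At 1 h HSF1 had 8.78, 10.7 and 10.7 TPM, still above pre-heat by 2.30 ± 0.22 on the log2 scale (adjusted p = 1.48e-14), where 12.3% of genes rose.

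HSF1 then came down while the heat went on. From one sampling to the next, HSF1 fell by 1.09 on the log2 scale at 1 h (SE 0.21, edgeR adjusted p = 1.64e-05) and by 1.71 at 2 h (SE 0.21, adjusted p = 3.73e-09), where 7.37% and 3.34% of all genes fell. The 2 h libraries held 3.93, 2.86 and 2.77 TPM, all above pre-heat, as were those of 30.3% of all genes, but with a log2 fold change of 0.60 ± 0.21 (adjusted p = 0.0122) that did not pass the size threshold. The lowest level of the heat period came at 4 h, with 1.85, 1.70 and 1.61 TPM, all 3 below the pre-heat libraries, as were those of 40.6% of all genes, and a log2 fold change of −0.29 ± 0.21 (adjusted p = 0.239). Later in the heat HSF1 was 2.70 to 3.40 TPM at 8 h, 2.05 to 4.98 TPM at 16 h and 3.04 to 4.45 TPM at 24 h. The log2 fold changes of 0.32, 0.47 and 0.61 all stayed under the size threshold.

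At 35°C HSF1 rose less and was called up at fewer heat samplings. It had 6.84, 5.64 and 6.93 TPM at heat 0 h of 35°C, against 2.52, 2.18 and 2.10 TPM in pre-heat. All 3 libraries lay well above pre-heat, and 18.1% of all genes had their 3 libraries above it. The log2 fold change was 1.70 ± 0.22 (edgeR's quasi-likelihood test, adjusted p = 2.62e-09), where 3.72% of all genes rose. After 0.5 h the libraries held 3.31, 4.87 and 3.16 TPM, with B the highest, and the log2 fold change of 1.07 ± 0.21 (adjusted p = 4.13e-05) was just past the threshold, where 3.22% of genes rose. Without letter B in heat and recovery it was 0.83, without letter C in pre-heat it was 0.997, and either way the call was lost. It was also lost with library size alone (0.87) and on log2(TPM + 1) (0.53) and log2(TPM + 0.1) (0.69). At 1 h the change of 0.91 ± 0.21 was under the size threshold, and at 2 and 4 h it was 0.00 and 0.03 with libraries between 1.33 and 1.84 TPM. From 8 to 24 h HSF1 stayed between 1.88 and 2.57 TPM, overlapping pre-heat at each of those samplings.

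HSF2 rose with HSF1 in early heat of 40°C and was called up at more samplings. At heat 0 h of 40°C HSF2 had 14.2, 18.6 and 24.4 TPM, against 3.59, 3.64 and 3.65 TPM in pre-heat. All 3 libraries lay above pre-heat, as did those of 14.1% of all genes. C was again the highest, and the log2 fold change was 2.86 ± 0.31 (edgeR's quasi-likelihood test, adjusted p = 7.76e-12). At 0.5 h the libraries held 47.8, 30.8 and 18.3 TPM, the highest mean level of the gene in the series and the largest SD, 14.8 TPM, although C lay below all 3 libraries of 1 h. The log2 fold change was 3.82 ± 0.32 (edgeR adjusted p = 1.03e-16). Library A of this time point carried the lowest TMM factor of the 90 libraries, 0.509, and the lowest agreement with its replicates (mean correlation 0.959). In the fit without letter A in heat and recovery, HSF2 was still higher by 3.07 on the log2 scale and called.

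After the peak HSF2 declined in its mean level through 4 h. It held 21.6, 20.9 and 21.0 TPM at 1 h of 40°C, nearly the same in all 3 libraries, and rose by 2.70 ± 0.31 over pre-heat on the log2 scale (edgeR adjusted p = 1.27e-11). At 2 h it had 13.2, 9.18 and 8.49 TPM, A the highest, and the change over pre-heat was 1.62 ± 0.30 (adjusted p = 3.87e-06), where 9.07% of all genes rose. The steps into these samplings were falls of 1.12 ± 0.29 and 1.08 ± 0.29. In normalised CPM the 0.5 h libraries held 882, 387 and 219 and the 1 h libraries 202, 227 and 254. These ranges overlapped, and C was higher at 1 h than at 0.5 h. The steps were not refitted without a letter. HSF2 was 4.56 to 7.15 TPM at 4 h, with a log2 fold change of 0.74 ± 0.29 that was not called. At 8 h it had 10.1, 6.54 and 7.20 TPM, all above pre-heat, as were the libraries of 35.7% of all genes. The log2 fold change was 1.05 ± 0.29 (adjusted p = 0.00185), where 8.56% of genes rose. That call was lost without letter A in heat and recovery, which left 0.88, and on log2(TPM + 1), at 0.93.

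Late in the 40°C treatment the libraries disagreed. At 16 h HSF2 had 11.1 and 9.83 TPM in A and B but 2.06 TPM in C, below every pre-heat library. The log2 fold change was 0.83 ± 0.29 (edgeR adjusted p = 0.013) with all 3 libraries. Without letter C in heat and recovery it was 1.21 ± 0.21, past every threshold, with the SE from the smaller set of libraries. With all 3 libraries it was also called when library size alone was used (1.03, adjusted p = 0.000857). At 24 h A and B had 7.64 and 7.16 TPM and C 3.02 TPM, and the change was 0.54 ± 0.29 (adjusted p = 0.105). Library C was also the lowest of its group for HSF1 at both samplings.

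In 35°C heat HSF2 made a smaller and flatter rise. At heat 0 h of 35°C 18.1% of all genes had their 3 libraries above pre-heat. HSF2 had 9.98, 8.93 and 9.21 TPM there, against 4.13, 3.98 and 3.87 TPM in pre-heat, with no overlap and a log2 fold change of 1.41 ± 0.30 (edgeR's quasi-likelihood test, adjusted p = 0.00011). At 0.5 h it held 6.60, 8.00 and 6.24 TPM and at 1 h 6.74, 5.72 and 5.69 TPM, and the changes of 1.13 ± 0.30 (adjusted p = 0.00157) and 1.06 ± 0.30 (adjusted p = 0.00253) were close to the size threshold. The background at 1 h was 2.91% of all genes. Without letter B in heat and recovery the 0.5 h value was 0.998 and not called. With library size alone, log2(TPM + 1) and log2(TPM + 0.1), both calls were lost, at 0.93, 0.66 and 0.78 for 0.5 h and 0.77, 0.49 and 0.58 for 1 h. From 2 to 24 h of 35°C the log2 fold changes lay between 0.56 and 0.73 and none was called, although all 3 libraries exceeded all 3 pre-heat libraries at 4, 8, 16 and 24 h, as did those of 6.04%, 16.5%, 18.9% and 14.7% of all genes.

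**Figure D2:**
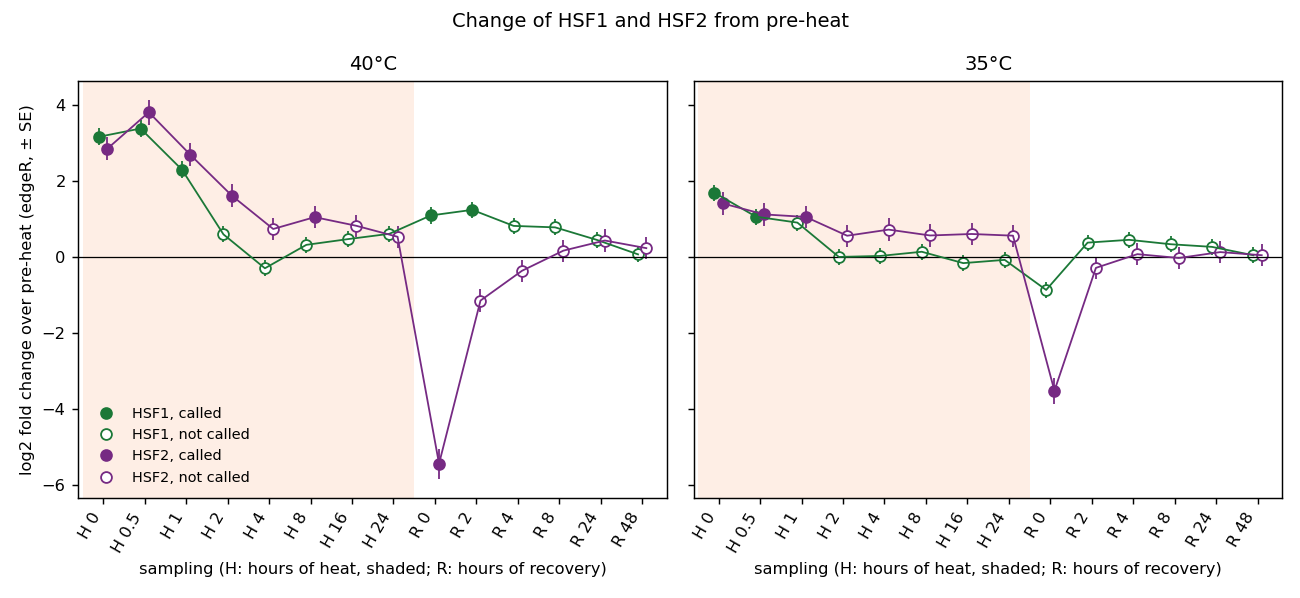
Log2 fold change over the pre-heat libraries of the same treatment (edgeR, bars ± SE) for HSF1 and HSF2 at 14 time points of 40°C and of 35°C, with filled points for changes that passed all criteria. HSF1 reaches 3.39 and HSF2 3.82 at 0.5 h of 40°C, and at recovery 0 h HSF2 stands at −5.45 after 40°C and −3.52 after 35°C.

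Counted over the 8 heat samplings, HSF1 rose at 3 at 40°C and 2 at 35°C, and HSF2 rose at 5 at 40°C and 3 at 35°C. The difference between the treatments was tested directly as the log2 change at 40°C minus that at 35°C. For HSF1 it was 1.48 ± 0.30 at heat 0 h (adjusted p = 0.000656), 2.32 ± 0.30 at 0.5 h (adjusted p = 2.26e-09) and 1.40 ± 0.30 at 1 h (adjusted p = 0.000165). The same differences were positive and called in 2.9%, 16.2% and 11.3% of all genes. HSF2 gave 1.44 ± 0.41 at heat 0 h (adjusted p = 0.0205), 2.69 ± 0.42 at 0.5 h (adjusted p = 2.3e-07), 1.64 ± 0.41 at 1 h (adjusted p = 0.00135) and 1.06 ± 0.41 at 2 h (adjusted p = 0.0458), the last where 10.4% of genes were called.

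These differences were not equally firm. Of those of HSF2, those at heat 0 h and 2 h held in 7 and 5 of 13 alternative settings, with adjusted p up to 0.189 and 0.254, and those at 0.5 and 1 h held in all 13, as did the 3 of HSF1. Without letter A in heat and recovery the HSF2 difference at 0.5 h was 1.89. At 4, 8, 16 and 24 h no difference passed the test for either gene, and the values ran from −0.33 to 0.69 for HSF1 and from −0.03 to 0.48 for HSF2.

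Cooling from 40°C separated the genes, whereas after 35°C both stood below pre-heat. There the log2 fold change at recovery 0 h was −0.87 for HSF1, which was not called, and −3.52 for HSF2. On the return to 25°C after 40°C, HSF2 dropped to 0.105, 0.0912 and 0.0347 TPM, against 3.59, 3.64 and 3.65 TPM in pre-heat. These levels rest on 19, 24 and 7 reads, with exact 95% Poisson intervals of 11.4 to 29.7, 15.4 to 35.7 and 2.81 to 14.4 reads that cover counting error only. All 3 libraries lay far below pre-heat, and C was the lowest. On the TPM scale 38.2% of all genes had their 3 libraries below pre-heat at that sampling. In normalised CPM HSF2 was 44.4-fold lower than in pre-heat. The log2 fold change was −5.45 ± 0.40 (edgeR's quasi-likelihood test, adjusted p = 1.72e-19), where 12.2% of all genes fell. It was the 181st lowest of 15541 log2 fold changes and was called under all 14 alternative settings, with adjusted p from 3.47e-50 to 4.59e-11.

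The drop took place between the last heat sampling and the arrival at 25°C. HSF2 had 7.64, 7.16 and 3.02 TPM at 24 h of 40°C, and the step to recovery 0 h was −5.98 ± 0.40 on the log2 scale (edgeR adjusted p = 1.66e-20), the 9th lowest step of all genes. In that step 9.08% of genes fell. HSF1 did not share it: the libraries held 4.48, 4.93 and 4.35 TPM at recovery 0 h, against 4.45, 4.24 and 3.04 TPM at 24 h of 40°C, and the step was 0.48 ± 0.21 (adjusted p = 0.0406).

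After 35°C the same fall of HSF2 was seen at a smaller size. HSF2 had 0.245, 0.220 and 0.392 TPM at recovery 0 h, from 48, 39 and 117 reads, against 4.13, 3.98 and 3.87 TPM in pre-heat. The groups did not overlap, and 41.6% of all genes had their 3 libraries below pre-heat in TPM. The log2 fold change was −3.52 ± 0.34 (edgeR's quasi-likelihood test, adjusted p = 4.06e-13), 85th lowest of 15541, where 6.09% of genes fell. In normalised CPM HSF2 was 11.8-fold lower than in pre-heat. The step from 24 h of heat was −4.09 ± 0.35 (adjusted p = 2.72e-15), the 22nd lowest, where 3.04% of genes fell. The change at 40°C minus that at 35°C was −1.92 ± 0.51 (adjusted p = 0.00132), a negative difference called in 13.2% of genes. It held in 11 of 13 alternatives. On log2(TPM + 0.1) it was −0.99 (limma adjusted p = 0.049) and not called. On log2(TPM + 1), a scale on which a gene near 0 TPM hardly moves, it was −0.14 (limma adjusted p = 0.793).

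HSF1 stood on opposite sides of its pre-heat level after the treatments. It had 4.48, 4.93 and 4.35 TPM at recovery 0 h after 40°C, against 2.42, 2.25 and 2.19 TPM in pre-heat, and rose by 1.10 ± 0.21 on the log2 scale (edgeR's quasi-likelihood test, adjusted p = 6.68e-06), where 16.4% of genes rose. Without letter B in heat and recovery it was 0.996, and with library size alone, log2(TPM + 1) and log2(TPM + 0.1) it was 0.94, 0.76 and 0.97, each under the size threshold. After 35°C it had 1.17, 1.01 and 0.940 TPM, against 2.52, 2.18 and 2.10 TPM in pre-heat, the lowest levels of the gene in the series. All 3 libraries lay below pre-heat, as 41.6% of all genes did on the TPM scale, and the log2 fold change of −0.87 ± 0.22 (adjusted p = 0.000828) did not reach the size threshold, which it passed, at −1.05, with library size alone and on log2(TPM + 0.1). The difference of 1.96 ± 0.30 between the treatments was called (adjusted p = 1.99e-07), as were positive differences in 17.1% of genes, and it held in all 13 alternatives.

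Within 2 h at 25°C HSF2 rose again. It had 3.20, 2.79 and 3.94 TPM at recovery 2 h after 40°C, a rise over recovery 0 h of 4.30 ± 0.39 on the log2 scale (edgeR adjusted p = 1.59e-15), where 14.5% of genes rose. After 35°C it had 4.93, 5.22 and 4.95 TPM, a rise of 3.24 ± 0.34 over recovery 0 h (adjusted p = 1.49e-12), where 11.2% of genes rose. Whether pre-heat levels had been reached depends on the scale. In TPM the 40°C libraries overlapped pre-heat, but in normalised CPM they held 14.3, 13.4 and 19.9, against 34.1, 35.6 and 35.6 in pre-heat, all lower. The log2 fold change over pre-heat was −1.15 ± 0.30 (adjusted p = 0.000579), and it was not called because mean TPM differed by less than 1. After 35°C the fold change at 2 h was −0.28 ± 0.29 (adjusted p = 0.473).

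For the rest of recovery HSF2 was near its starting level. At 4 h after 40°C it had 5.91, 6.28 and 6.28 TPM but 26.1, 27.4 and 28.5 normalised CPM, above pre-heat on the first scale and below it on the second. In TPM 78.7% of all genes had their 3 libraries above pre-heat at that sampling. The log2 fold change of HSF2 was −0.36 ± 0.29 and was not called. From 8 to 48 h after 40°C the log2 fold changes were 0.17, 0.44 and 0.24, and from 4 to 48 h after 35°C they lay between −0.02 and 0.13, none of them called.

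HSF1 stayed high in early recovery from 40°C. At 2 h it had 12.7, 9.15 and 11.3 TPM, against 2.42, 2.25 and 2.19 TPM in pre-heat, and 47.3, 36.5 and 47.7 normalised CPM, against 19.2, 18.4 and 17.9 in pre-heat. All 3 libraries exceeded pre-heat on both scales, though by more in TPM, where 69.9% of all genes had their 3 libraries above pre-heat. The log2 fold change was 1.25 ± 0.21 (edgeR's quasi-likelihood test, adjusted p = 5.37e-07), where 17.5% of genes rose, and it held in all 14 alternatives, in which the adjusted p ran up to 1.82e-05. At 4 and 8 h HSF1 had 7.19 to 10.4 and 5.39 to 5.59 TPM, and the changes of 0.82 ± 0.21 (adjusted p = 0.000609) and 0.78 ± 0.21 (adjusted p = 0.00207) were under the size threshold. These 2 values depend on the scale: at 4 h HSF1 was called up with library size alone (1.30), on log2(TPM + 1) (1.57) and on log2(TPM + 0.1) (1.89), and at 8 h on log2(TPM + 0.1) (1.24). At 24 h HSF1 had 3.09 to 3.77 TPM and 22.8 to 27.2 normalised CPM, still above pre-heat on both scales. In TPM 25.2% of all genes had their 3 libraries above pre-heat there, and the log2 fold change of HSF1, 0.46, was not called. By 48 h its libraries held 2.69, 2.55 and 2.00 TPM and overlapped pre-heat (0.07 ± 0.21).

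After 35°C HSF1 climbed back from its low point without passing pre-heat by the test. It had 5.09, 4.32 and 4.22 TPM at recovery 2 h, a rise over recovery 0 h of 1.25 ± 0.22 on the log2 scale (edgeR adjusted p = 1.69e-06). All 3 libraries were above pre-heat in TPM, as were those of 64.1% of genes, and the log2 fold change over pre-heat was 0.38 ± 0.21 (adjusted p = 0.153). From 4 to 48 h it ran from 0.05 to 0.46 with no call. At 2 h the change at 40°C minus that at 35°C was 0.86 ± 0.30 (adjusted p = 0.0179), past the p threshold but not the size threshold. Without letter B in heat and recovery it was 1.00 and called.

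The balance of the genes was followed as the ratio of HSF2 to HSF1 TPM within each library, which does not depend on scaling between libraries. HSF2 was the higher in 75 of 90 libraries and the lower in 15. The ratio, as a geometric mean of 3 libraries, was 1.59 in 40°C pre-heat and 1.77 in 35°C pre-heat. On reaching the high temperature it was 1.30 at 40°C and 1.45 at 35°C, below every pre-heat library of the same treatment. It was higher later in heat, where 40°C gave ratios of 3.20 at 2 h and 3.21 at 4 h, and 35°C gave 2.85 at 4 h and 2.98 at 16 h. At these samplings all 3 heated libraries lay above all 3 of pre-heat, and the exact two-sided permutation test gave p = 0.1, the smallest it can give with 3 against 3. At 16 and 24 h of 40°C the libraries ran from 1.01 to 2.71 and from 0.992 to 1.72, overlapping pre-heat.

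On cooling HSF1 was the more abundant. The ratio was 0.0151 at recovery 0 h after 40°C (libraries 0.00799 to 0.0235) and 0.266 after 35°C (0.209 to 0.418). After 40°C it was 0.299 at 2 h, 0.704 at 4 h and 1.04 at 8 h, all below pre-heat, then 1.54 at 24 h and 1.78 at 48 h. After 35°C it had come back to 1.11 by 2 h and to 1.60 by 24 h. HSF2 thus remained under HSF1 through 4 h of recovery from 40°C, whereas after 35°C 1 of the 3 libraries at 2 h was still under a ratio of 1 (0.968).

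**Figure D3:**
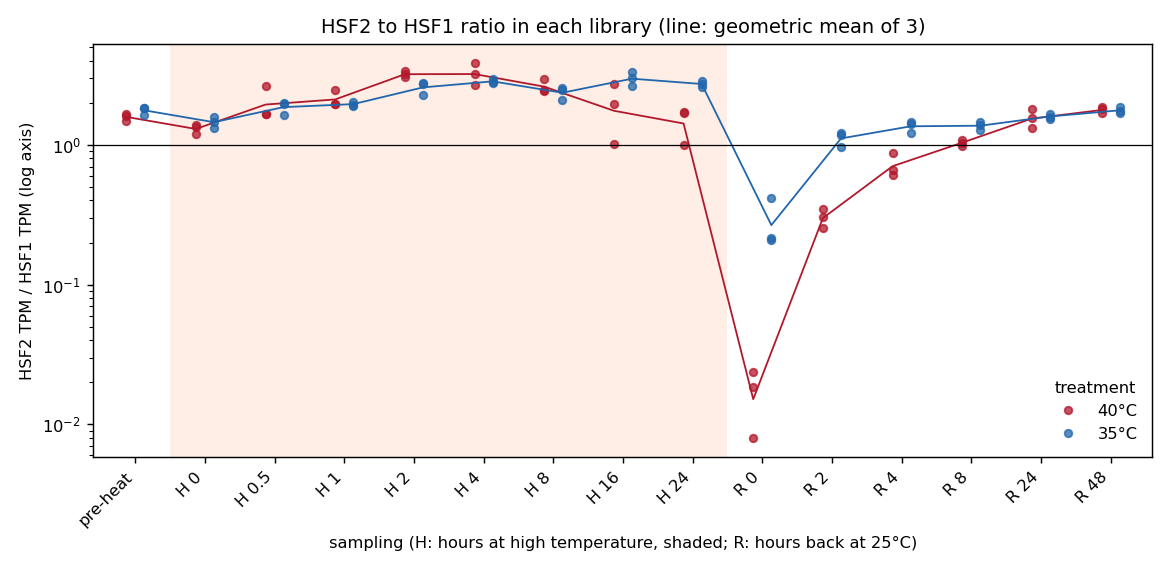
Ratio of HSF2 to HSF1 TPM within each library (log scale) at the 15 time points of the 40°C and 35°C treatments; points are libraries and lines join geometric means. Pre-heat lies at 1.59 and 1.77, the heat period reaches 3.21 and 2.98, and recovery 0 h lies at 0.0151 and 0.266.

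Ranked by mean TPM over the 15 time points, HSF1 at 40°C was highest at 0.5 h of heat (15.9 TPM), followed by heat 0 h (14.9), recovery 2 h (11.0), heat 1 h (10.1) and recovery 4 h (8.84). Each of these TPM ranges overlapped the next, and the first gap in the TPM order came between recovery 4 h and 8 h. In normalised CPM the order was different. Heat 1 h (mean 91.3, libraries 68.7 to 108) lay wholly above recovery 2 h (43.8, libraries 36.5 to 47.7), and recovery 0 h (39.5) came before recovery 4 h (32.7). In TPM pre-heat was next to last, above heat 4 h. At 35°C the highest HSF1 level was heat 0 h (6.47 TPM), apart from all others, and the lowest was recovery 0 h (1.04 TPM), also apart. In each treatment 10 of the 14 neighbouring pairs in the HSF1 order by TPM overlapped in their libraries. HSF2 was highest at 0.5 h of 40°C (32.3 TPM) and at heat 0 h of 35°C (9.37 TPM) and lowest at recovery 0 h of both. In its order 12 of 14 neighbouring pairs overlapped at 40°C and 11 of 14 at 35°C.

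Over the 30 group means of log2(TPM + 1) the genes correlated with r = 0.572, which placed each well down the list of genes most like the other, HSF2 964th for HSF1 and HSF1 717th for HSF2 among 9849 genes compared. Within the 40°C pre-heat and heat groups r was 0.921 (9 groups), and within the 40°C pre-heat and recovery groups it was 0.0604 (7 groups). At 35°C it was 0.888 and 0.873. These are descriptions over time points that share libraries and the TPM scale.

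Most chaperone genes of each group were up together with the factors after 0.5 h of 40°C, though only 2 of 5 ClpB genes rose at heat 0 h. At 0.5 h of 40°C 8 of 9 genes of the small HSP list (8 HSP22 genes and HSP33, a redox-regulated chaperone) rose, with a list median of 12.2 on the log2 scale, against 0.01 for all genes. Of 11 HSP70 and HSP90 genes 8 rose and 1 fell (median 3.56), and of 5 ClpB genes 3 rose and 1 fell (median 2.12). Over all genes 15.2% rose and 15.3% fell. HSFL (Cre07.g329800), annotated as similar to an HSF-binding protein, a class that in animals restrains HSF1, rose by 1.80. HSP22A, a small HSP, had 33993, 32453 and 25306 TPM at that time, against 1.01, 0.485 and 0.410 TPM in pre-heat. HSP90A, a cytosolic HSP90, had 3219, 4866 and 3097 TPM, against 273, 212 and 257 TPM, and CLPB1 had 1004, 645 and 261 TPM, against 2.22, 2.73 and 2.09 TPM. In mean TPM the peak of the 40°C course was at 0.5 h for HSF1, HSF2, HSFL, 8 of 9 small HSPs, 8 of 11 HSP70 and HSP90 genes and 2 of 5 ClpB genes.

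At 35°C the shared peak was earlier and less complete. Both factors peaked at heat 0 h, as did 1 of 9 small HSPs, 4 of 11 HSP70 and HSP90 genes and 2 of 5 ClpB genes. At that time 3 small HSPs, 7 HSP70 and HSP90 genes and 2 ClpB genes rose, while 1 of the HSP70 and HSP90 genes and 1 ClpB gene fell. Over all genes 3.72% rose and 4.16% fell. HSFL had a log2 fold change of 0.64 and was not called.

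The chaperone groups were followed on cooling as well. At recovery 0 h after 40°C, when HSF2 was at 0.0347 to 0.105 TPM and HSF1 at 4.35 to 4.93 TPM, 5 of 9 small HSPs rose over pre-heat (median 6.88), 2 of 11 HSP70 and HSP90 genes fell, 1 of 5 ClpB genes rose and 1 fell, and HSFL fell by 1.06. Over all genes 16.4% rose and 12.2% fell at that sampling, and the HSP70, HSP90 and ClpB counts are close to those shares. HSP22A had 149, 494 and 136 TPM, against 1.01, 0.485 and 0.410 TPM in pre-heat, and HSP70A, a cytosolic HSP70, had 51.1, 222 and 37.5 TPM, against 289, 224 and 260 TPM. Library B was the highest of its group for HSP22A, HSP70A, HSP90A and CLPB1, and it stood between A and C for HSF2. At recovery 2 h after 40°C 4 small HSPs and 1 ClpB gene rose, where 17.5% of all genes rose, and the ClpB count was close to that share. At that sampling 3 HSP70 and HSP90 genes fell, where 11.7% of all genes fell, and HSFL fell by 1.87.

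HSP22E, a small HSP, had a second high at that point, with 3612, 2289 and 1307 TPM at recovery 2 h after 40°C, against 5157, 2921 and 1498 TPM at 0.5 h of heat and a log2 fold change over pre-heat of 7.28. At recovery 0 h after 35°C 1 small HSP rose, where 5% of all genes rose. At that sampling 1 HSP70 or HSP90 gene and 1 ClpB gene fell, where 6.09% of all genes fell. The ClpB gene was CLPB1, with 0.703, 0.273 and 0.639 TPM, against 2.38, 2.19 and 3.06 TPM in pre-heat (log2 fold change −1.97).

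**Figure D4:**
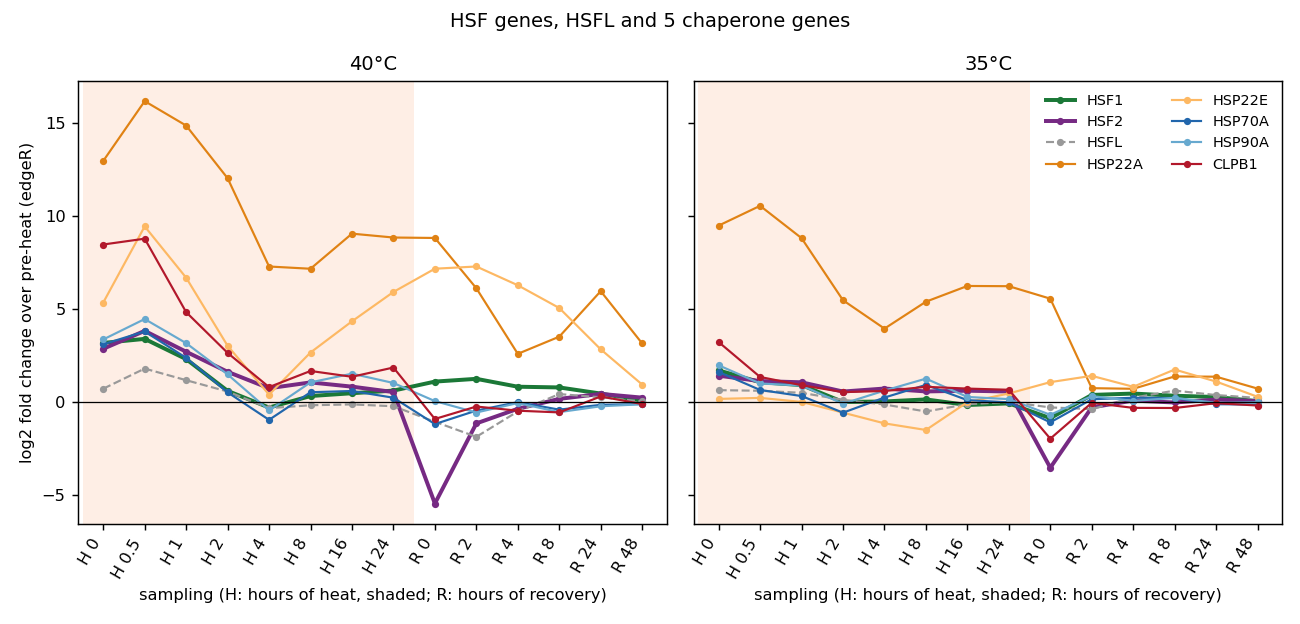
Log2 fold change over pre-heat (edgeR) of HSF1, HSF2, HSFL and the named chaperone genes at each time point of 40°C and 35°C. The chaperones and both factors are up at 0.5 h of 40°C, and at recovery 0 h HSF2 stands at −5.45 while HSF1 stands at 1.10.

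The genes whose pattern was most like each factor were found by Pearson correlation over the same 30 group means. That choice fixes that they share the peaks and troughs of the factor, so their values are a description. For HSF1 they were Cre14.g613350 (r = 0.952), RAT1 (Cre09.g388400, 0.942), Cre01.g054050 (0.933), Cre01.g029850 (0.928) and UFD1b (Cre03.g179100, 0.923). RAT1 is a factor for maturation of the chloroplast tscA RNA, which takes part in psaA trans-splicing, and UFD1b belongs to the UFD1 family, known from yeast and animals for work in ubiquitin-dependent protein degradation. All 5 rose at 0.5 h of 40°C, by 2.07 to 5.42 on the log2 scale. At recovery 0 h after 40°C their changes were 0.03 to 1.18, and 1 of them, RAT1, rose. None of the 5 was among the first 5 by Spearman's rho.

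For HSF2 the closest genes were Cre14.g620750 (r = 0.980), CGL12 (Cre09.g387100, 0.974), Cre09.g388319 (0.963), HKR5 (Cre13.g571200, 0.961) and Cre01.g037150 (0.961). HKR5 is annotated as a histidine kinase response regulator, and CGL12 is the gene next to HSF1 in the RefSeq annotation of assembly v5.5, in which it does not overlap HSF1. CGL12 had 187, 111 and 77.9 TPM at 0.5 h of 40°C, against 11.1, 10.2 and 11.1 TPM in pre-heat, and 1.57, 0.849 and 0.424 TPM at recovery 0 h. All 5 rose at 0.5 h of 40°C, by 2.18 to 4.204, and all 5 fell at recovery 0 h, by 2.66 to 5.19 after 40°C and by 2.11 to 4.13 after 35°C. By Spearman's rho 2 of these 5 stayed among the first 5, and with a pseudocount of 0.1 in place of 1, 4 of the 5 stayed for each factor.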

How the data were processed

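The Joint Genome Institute prepared the libraries and sequenced them as paired-end reads on a NovaSeq instrument. The authors trimmed and filtered reads with BBDuk and BBMap, checked them with FastQC, mapped them to the Chlamydomonas genome with STAR, keeping reads with 1 mapped locus and at most 1 mismatch, and counted reads per gene with HTSeq; the sources used here give neither tool versions nor the strand setting of the counting. The deposited tables hold raw read counts per gene and the TPM values that the authors derived from the counts and a fixed length per gene, scaled to 1000000 per library.

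Genes with at least 10 reads in at least 9 of the 90 libraries were kept. Changes were tested on the counts with edgeR 4.0.16 (R 4.3.3), using TMM factors, the quasi-likelihood F-test and 1 mean for each of the 30 groups, with p-values adjusted over all 15541 genes by the method of Benjamini and Hochberg. A call needed an adjusted p under 0.05, a log2 fold change beyond ±1 and mean TPM values at least 1 apart, the criteria of the study, whose mixed-effect model on TPM was replaced by this count test. Differences between treatments were contrasts in the same fit, with no TPM criterion. In simulated counts for 6 libraries, 40°C recovery 0 h against pre-heat, 53% of genes changed 2-fold and 92% of genes changed 4-fold were found, over 15541 genes. Found there meant an adjusted p under 0.05 in the right direction, without the size and TPM criteria, and only genes above a minimum expected read count were changed. The spread was estimated from those 6 libraries alone, so these shares are not the power of the 90-library fit. Ratios of HSF2 to HSF1 were compared by an exact two-sided permutation test over libraries.

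HSF1, HSF2, HSFL, the chaperone lists, HSP22A, HSP22E, HSP70A, HSP90A and CLPB1 were named by rule, as were the 5 genes with the highest Pearson correlation with each factor among tested genes with a mean of at least 5 TPM in 1 group or more. Members and lists were chosen with earlier results of these data known. Alternatives were DESeq2 1.42.0 (its size factors and its Wald test), library size alone, no filter, limma 3.58.1 on log2(TPM + 1) and log2(TPM + 0.1), 1 treatment alone, the library letter as a block, leaving out each letter, and other call rules. Libraries with the same letter did not deviate together in most comparisons, so the letter was not used as a block.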

Additional observations from a re-analysis of the deposited data

Results flagged for a closer look

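The change from pre-heat differed between 40°C and 35°C, by the test of the difference itself (edgeR's quasi-likelihood test of the interaction, adjusted over all genes), at 4 time points for HSF1 and 5 for HSF2. As log2 change at 40°C minus log2 change at 35°C, HSF1 gave 1.48 on reaching temperature, 2.32 after 0.5 h, 1.40 after 1 h and 1.96 at recovery 0 h, where HSF1 stood above pre-heat after 40°C and below it after 35°C. HSF2 gave 1.44 on reaching temperature, 2.69 after 0.5 h, 1.64 after 1 h and 1.06 after 2 h, each a larger rise at 40°C, and −1.92 at recovery 0 h, a deeper fall after 40°C. Positive differences were called in 2.9%, 16.2%, 11.3% and 10.4% of all genes at heat 0, 0.5, 1 and 2 h. At recovery 0 h 17.1% had a positive and 13.2% a negative one. The HSF2 differences at heat 0 h, heat 2 h and recovery 0 h held in 7, 5 and 11 of 13 alternatives.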

How the results depend on the processing

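Over 86 log2 values of the factors and 1168 values under alternatives, 1071 kept their direction and side of the threshold, 34 lost the call, 14 gained it and 49 changed sign, the last among 15 values that were called under no setting. The fall of HSF2 at recovery 0 h, the rise of HSF1 at recovery 2 h after 40°C and the rises at heat 0 h held throughout. Depth limits HSF2 at recovery 0 h, where 7 to 117 reads set its level. The cause of the changes listed here was not tested.

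With library size alone, log2(TPM + 1) and log2(TPM + 0.1), in that order, the change of HSF1 at 35°C was 0.87, 0.53 and 0.69 at 0.5 h, −0.27, −0.33 and −0.48 at 2 h, −0.23, −0.32 and −0.46 at 4 h and −0.017, −0.025 and −0.036 at recovery 48 h. HSF1 at recovery 0 h after 40°C was 0.94, 0.76 and 0.97, and at recovery 4 h 1.30, 1.57 and 1.89, now called, and after 35°C it passed the threshold at −1.05 with library size and −1.05 with log2(TPM + 0.1). HSF2 at 35°C was 0.93, 0.66 and 0.78 at 0.5 h, 0.77, 0.49 and 0.58 at 1 h, 0.000619, 0.27 and 0.33 at recovery 2 h, and −0.016, −0.029 and −0.037 at recovery 48 h. HSF2 at recovery 8 h after 35°C was 0.014 and 0.017 on the TPM scales, and at recovery 4 h after 40°C it was 0.12, 0.63 and 0.75. The difference between treatments for HSF1 was 0.045, 0.042 and 0.064 at 4 h of heat and 1.03, 1.10 and 1.24, now called, at recovery 2 h, and for HSF2 0.19, 0.12 and 0.13 at 24 h. On the 2 TPM scales the HSF2 difference was 1.03 and 1.12 at heat 0 h, −0.14 and −0.99 at recovery 0 h, and 0.18 and 0.21 at recovery 4 h. The HSF2 difference at 4 h of heat was −0.040 with DESeq2 size factors, −0.040 with the DESeq2 test and −0.00227 without the filter.

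Samplings called up in 35°C heat numbered 1 for HSF1 and 1 for HSF2 under each of these 3 settings, and HSF2 differences between treatments 3 on both TPM scales. HSF1 was called down once in recovery from 35°C with library size, with log2(TPM + 0.1) and by adjusted p alone. By adjusted p alone HSF1 was higher at 6 heat and 4 recovery samplings at 40°C. HSF2 was called down at 2 recovery samplings after 40°C by adjusted p alone and at 2 without the TPM criterion. With the letter as a replicate block no call changed; the HSF2 difference between pre-heat sets was 0.12 and that at 4 h of heat −0.0057. Correlations of same-letter deviations ran from −0.11 to 0.45 (median 0.11). They were over 0.1 in 46 of 84 cases, and for all 3 letters in 8 of 28 comparisons.

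Leaving out 1 library letter at a time, HSF1 at 35°C ran from 0.83 to 1.17 (0.5 h), −0.065 to 0.13 (2 h), −0.039 to 0.13 (4 h), −0.14 to 0.020 (24 h), −1.004 to −0.77 (recovery 0 h) and −0.064 to 0.14 (recovery 48 h), and HSF1 at recovery 0 h after 40°C from 0.996 to 1.13. HSF2 at 35°C ran from 0.998 to 1.18 (0.5 h), −0.097 to 0.010 (recovery 8 h) and −0.025 to 0.084 (recovery 48 h). The difference between treatments ran from 0.72 to 1.00 at recovery 2 h and −0.063 to 0.10 at recovery 48 h for HSF1, and for HSF2 from 1.11 to 1.68 (heat 0 h), −0.24 to 0.067 (4 h), −0.16 to 0.52 (16 h), −0.25 to 0.091 (24 h) and −1.10 to −0.67 (recovery 2 h). The counts ran from 1 to 2 (HSF1 up in 35°C heat), 0 to 1 (HSF1 down after 35°C), 1 to 2 (HSF1 up after 40°C) and 3 to 6 (HSF2 differences between treatments).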
